A study of Homo sapiens with 4 samples.

Results

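EGFL7 and 9 other genes of blood vessel growth were followed in T24 cells, a human bladder cancer line, with and without forced CBX7: VEGFA, VEGFB, VEGFC, PGF, ANGPTL4, THBS1, ADM, NRARP and FLT1. These 10 genes, of 60623 in the deposited table, were chosen by name with the result of this comparison known. EGFL7 had been picked for its higher level in both CBX7 libraries, and the other members as the factors to set beside it. Their differences are therefore given as a description, with no test. Of the 10, 9 passed the filter on low counts and were among 14862 genes fitted, and FLT1 did not. FLT1 is a receptor that was at or near 0, and NRARP acts inside the cell, so the 10 genes are not all factors that T24 cells could secrete.

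The endothelial cells that line vessels are drawn towards a tissue by secreted ligands, chief among them the VEGF family, and are held back by inhibitors such as thrombospondins. EGFL7 is a small secreted protein with EGF-like domains that is best known from endothelial cells, where it binds the matrix and has been linked to Notch signalling. NRARP is a target of Notch signalling that acts back on the pathway. CBX7 is a subunit of Polycomb repressive complex 1, which binds trimethylated histone H3 and helps keep genes silent.

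The data were RNA-seq of 2 control libraries and 2 libraries of cells overexpressing CBX7. The study describes a full-length CBX7 cloned into a pCDH-3xFLAG vector. What the control cells carried is not given in the labels. All cells were of the 1 line, grown in RPMI with serum. Nothing in the labels says that the libraries of a group came from separate cultures, so the spread between them may be technical. Summed estimated counts ran from 20800910 to 25135488 per library. For a gene with no count, counting error alone leaves room for 3 counts, which is 0.119 to 0.144 CPM (counts scaled to library size). CBX7 itself stood at 4.98 and 3.73 TPM (a level per transcript length, scaled to a common library total) in control cells and at 610.1 and 607.3 TPM in CBX7 cells, so the labels and the libraries went together. The ratio of the first CBX7 library to the first control library leaned on gene length across 11077 well-counted genes (Spearman's rho -0.62). That of the second pair did not (0.042). With GC content the rho was 0.41 in the first pair and 0.066 in the second. The differences of the members are given below with and without a correction for length and GC content. Those of other genes are given without it unless stated. The part of these leans in any single result was not tested.

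EGFL7 (ENSG00000172889) is on chromosome 9 of GRCh38, from 136658856 to 136672678 on the plus strand. The hairpin of miR-126, a microRNA of endothelial cells, lies inside it, at 136670602 to 136670686, in an intron of 5 of its 7 annotated transcripts (intron 7 of the 10-exon transcript that begins at 136658856). Its 2 mature forms are shown because they share the host transcript, with the seed (bases 2 to 8) in capitals, as RefSeq gives them on GRCh38.p14.
hsa-miR-126-5p: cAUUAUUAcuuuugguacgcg
hsa-miR-126-3p: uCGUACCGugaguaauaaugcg
The 2 seeds differ. MIR126 was listed at a count of 0 in all 4 libraries. The library preparation recovered long fragments, so mature microRNAs were not measured.

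The start regions of EGFL7, PGF and NRARP follow because these were the members at least 2-fold higher in CBX7 cells without overlap. Each is the window of 250 bases before an annotated start, from RefSeq on GRCh38.p14, read 5′ to 3′ on the gene's strand. Capitals mark matches on either strand to GGGCGG (the GC box), TATAAA (the TATA box), TGGGAA (the core of the motif of RBPJ, the DNA-binding partner of Notch) or ACGTG (the core of the motif of hypoxia-inducible factors). EGFL7 has 2 such starts, at chr9:136658606-136658855 and chr9:136662666-136662915, both on the plus strand. PGF also has 2, with overlapping windows at chr14:74955765-74956014 and chr14:74955598-74955847, and NRARP 1, at chr9:137302272-137302521, all on the minus strand. The bases just after the start were found in 1 and 0 of the 7 GENCODE transcripts of EGFL7 for its first and second start. They were found in 1 and 4 of the 8 of PGF, and in 0 of the 1 of NRARP. GENCODE transcripts of EGFL7 begin just beyond its second start (136662916), at 136662927, 136662930, 136662932 and 136662933. On the minus strand, NRARP begins at 137302251 in GENCODE, just beyond the start at 137302271. A 0 here thus does not show that a start is unused.
EGFL7 start 1: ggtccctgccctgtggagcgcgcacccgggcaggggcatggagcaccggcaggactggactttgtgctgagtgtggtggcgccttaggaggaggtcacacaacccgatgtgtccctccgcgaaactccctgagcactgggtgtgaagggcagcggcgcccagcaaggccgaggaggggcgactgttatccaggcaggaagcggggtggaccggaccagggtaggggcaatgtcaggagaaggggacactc
EGFL7 start 2: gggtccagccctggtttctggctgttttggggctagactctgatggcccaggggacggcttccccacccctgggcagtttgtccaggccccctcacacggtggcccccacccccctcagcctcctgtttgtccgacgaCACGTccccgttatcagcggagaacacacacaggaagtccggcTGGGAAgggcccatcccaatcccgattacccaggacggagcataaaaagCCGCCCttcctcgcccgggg
PGF start 1: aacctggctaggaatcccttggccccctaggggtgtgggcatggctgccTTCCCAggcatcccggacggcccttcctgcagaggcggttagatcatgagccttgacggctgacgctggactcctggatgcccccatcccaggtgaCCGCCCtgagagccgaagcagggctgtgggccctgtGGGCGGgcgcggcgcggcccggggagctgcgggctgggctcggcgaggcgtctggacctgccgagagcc
PGF start 2: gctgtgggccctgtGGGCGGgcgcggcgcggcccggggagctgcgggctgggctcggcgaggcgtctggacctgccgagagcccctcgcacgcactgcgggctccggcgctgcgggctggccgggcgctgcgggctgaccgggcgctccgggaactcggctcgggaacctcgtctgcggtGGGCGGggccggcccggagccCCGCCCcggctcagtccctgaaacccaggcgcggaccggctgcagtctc
NRARP: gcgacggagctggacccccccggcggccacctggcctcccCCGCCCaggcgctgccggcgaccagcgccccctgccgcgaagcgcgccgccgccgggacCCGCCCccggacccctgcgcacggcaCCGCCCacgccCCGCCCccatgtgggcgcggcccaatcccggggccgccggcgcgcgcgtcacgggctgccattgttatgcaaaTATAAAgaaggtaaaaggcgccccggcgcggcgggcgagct
The first EGFL7 window held 14 CpG dinucleotides and no match to the 4 motifs. The second held 13 CpG, 1 GC box, 1 TGGGAA and 1 ACGTG. The first PGF window held 18 CpG, 2 GC boxes and 1 TGGGAA. The second held 35 CpG, more than 94.2% of windows, with 3 GC boxes and no TGGGAA. The NRARP window held the most CpG of the 5, with 39 CpG, 4 GC boxes and 1 TATA box, and 97.3% of 35116 windows of this length held fewer CpG, against a median of 11. Across those windows 42.6% held a GC box, 10.7% TATAAA, 20.8% TGGGAA and 18.5% ACGTG, so a match is common and is a description of the letters alone. Windows were found for 9 of the 10 members. VEGFA was the member without one.

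EGFL7 was about 3 times as high in CBX7 cells. Its level was 20.3 and 17.9 TPM in control cells and 64.0 and 48.7 TPM in CBX7 cells. Both CBX7 libraries were above both control libraries, with a wider spread in the CBX7 group (56.3 ± 10.8 TPM, SD, n = 2) than in the control group (19.1 ± 1.65 TPM, SD, n = 2). The counts behind these levels were 373, 293, 1361 and 810. The fitted log2 fold change, on normalised counts, was 1.65 with a standard error of 0.24, or 3.13-fold (2.65 to 3.70 at 1 standard error). It was 1.84 between the libraries numbered 1, 1.37 between those numbered 2, and 1.39 after the correction for length and GC. In bulk RNA of this kind, more cells expressing a gene and more RNA in each cell cannot be told apart. The genes that overlap EGFL7, MIR126 and the antisense AL590226.1, had no counts.

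Across all genes tested, the quasi-likelihood test of edgeR found 3 of 14862 (0.0202%) at an adjusted p (Benjamini-Hochberg) under 0.05, all higher in CBX7 cells, and 705 at an unadjusted p under 0.05. The 3 were CBX7, JAG2 and EEF1A2, a translation elongation factor gene named here after its value was seen. DESeq2's Wald test called 67 genes. The CBX7 libraries were both above the control libraries, in CPM, for 15.4% of genes tested and both below for 14.8%. The share that was higher without overlap and at least 2-fold was 1.65%, and the share lower by this rule was 0.693%. Of the 9 members fitted, 4 were higher without overlap (EGFL7, PGF, ADM and NRARP), 3 of these by at least 2-fold, 1 was lower without overlap (VEGFA), and 4 overlapped (VEGFB, VEGFC, ANGPTL4 and THBS1). Since the members were chosen on this contrast, the counts describe them and are read no further. The median log2 fold change of the 9 was 0.33, against 0.0017 over all genes tested, and after the length and GC correction it was 0.05, against -0.00874.

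**Figure D1:**
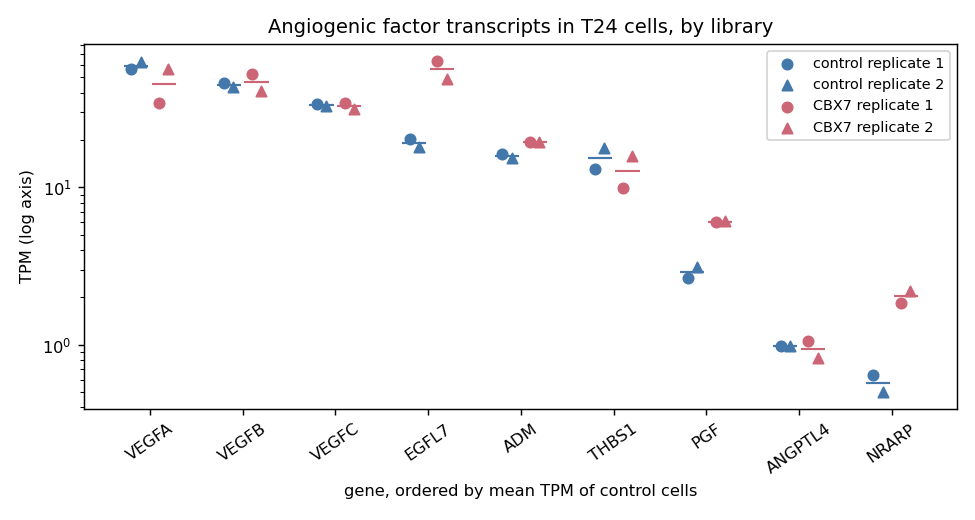
Level of 9 of the 10 genes in each of the 4 libraries, in TPM on a log axis, with genes ordered by the mean of control cells. Circles are replicate 1 and triangles replicate 2, short lines are group means of 2 libraries, and FLT1, at 0 to 0.01 TPM, is left off. The CBX7 points stand clear above the control points for EGFL7, PGF, ADM and NRARP.

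VEGFA, the main VEGF ligand and the classical driver of vessel sprouting, was the member that was lower in both CBX7 libraries. The gene lies on chromosome 6 from 43770184 to 43786487 (plus strand). It stood at 56.6 and 62.4 TPM in control cells and at 34.4 and 56.3 TPM in CBX7 cells. The groups did not overlap, yet the second CBX7 library lay within 1 TPM of the first control library. The log2 fold change was -0.31 (SE 0.15), with -0.48 between the libraries numbered 1 and -0.15 between those numbered 2. It was -0.42 after the length and GC correction, which used the deposited length of 1286 bases. VEGFA had more counts for each TPM than VEGFC, deposited at 2259 bases. The length behind its TPM was thus longer, and the corrected value may be off.

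VEGFB, a VEGF family ligand of FLT1 that is linked more to fatty acid uptake and cell survival than to sprouting, was 45.8 and 43.7 TPM in control cells and 52.5 and 41.1 TPM in CBX7 cells. The gene lies on chromosome 11 from 64234538 to 64238793 (plus strand). The CBX7 libraries lay on either side of the control libraries. Its log2 fold change was 0.33 (SE 0.25), and with the length and GC correction 0.05.

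VEGFC, which acts mainly on lymphatic vessels through FLT4, was 34.1 and 33.0 TPM in control cells and 34.2 and 31.7 TPM in CBX7 cells. VEGFC lies on chromosome 4 from 176683538 to 176792727 (minus strand). The 4 libraries lay close together and the groups overlapped. A log2 fold change of 0.08 (SE 0.18) resulted, and of 0.03 after the length and GC correction.

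PGF, placental growth factor, is a VEGF family ligand that binds FLT1. Its gene lies on chromosome 14 from 74941834 to 74955784 (minus strand). It was 2.67 and 3.12 TPM in control cells and 6.02 and 6.09 TPM in CBX7 cells, from counts of 74, 73, 202 and 149. Both CBX7 libraries were above both control libraries, and the 2 CBX7 libraries lay close together. The log2 fold change was 1.19 (SE 0.22), or 2.29-fold. It was 0.94 after the length and GC correction, and the separate pairs gave 1.41 and 0.92. The correction used a deposited length of 666 bases, yet PGF had more counts for each TPM than ADM, deposited at 867 bases. The corrected value of PGF may thus be off too.

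The 4 VEGF family ligands together came to 139 and 142 TPM in control cells and 127 and 135 TPM in CBX7 cells. The sum was thus lower in both CBX7 libraries, by a small margin. PGF made up 1.92% and 2.19% of the sum in control cells and 4.74% and 4.51% in CBX7 cells. The share of VEGFA was 40.6% and 43.9% in the control libraries against 27.1% and 41.7% in the CBX7 libraries. PGF thus held a larger share of the sum in both CBX7 libraries and stayed its smallest part.

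Set against these ligands, EGFL7 took up a different place in the 2 groups. The ratio of EGFL7 to VEGFA in TPM was 0.358 and 0.287 in the control libraries against 1.86 and 0.865 in the CBX7 libraries. Its ratio to the summed VEGF family was 0.146 and 0.126 in the control libraries against 0.504 and 0.360 in the CBX7 libraries. Both ratios were higher in both CBX7 libraries, and EGFL7 exceeded VEGFA in 1 of the 2.

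**Figure D2:**
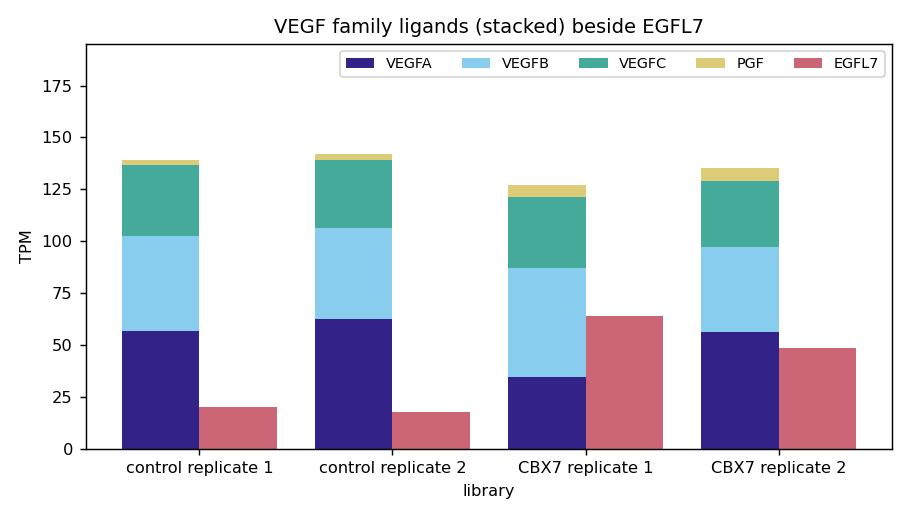
TPM of the VEGF family ligands VEGFA, VEGFB, VEGFC and PGF, stacked, beside EGFL7 in each of the 4 libraries. The stacked bars range from 127 to 142 TPM, and the EGFL7 bars from 17.9 and 20.3 TPM in control cells to 48.7 and 64.0 TPM in CBX7 cells.

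ADM encodes adrenomedullin, a peptide that widens vessels and supports the endothelial barrier. Its gene lies on chromosome 11 from 10304680 to 10307397 (plus strand). It was 16.3 and 15.4 TPM in control cells and 19.6 and 19.5 TPM in CBX7 cells. Both CBX7 libraries were above both control libraries, by a small margin. For ADM the log2 fold change was 0.44 (SE 0.18), and after the length and GC correction 0.20. Its receptor is built from CALCRL with RAMP2 or RAMP3. RAMP2 had counts of 0, 2, 2 and 1 and RAMP3 of 0 in all 4 libraries, which are at or under the floor.

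ANGPTL4, an inhibitor of lipoprotein lipase that is induced by hypoxia and fasting, was, with NRARP, one of the 2 lowest members with a measurable level. Its gene lies on chromosome 19 from 8363289 to 8374373 (plus strand). It stood at 0.98 TPM in each control library and at 1.06 and 0.82 TPM in CBX7 cells, from counts of 30, 22, 38 and 22. The CBX7 libraries lay on either side of the control libraries. The log2 fold change was 0.15 (SE 0.38), and -0.05 after the length and GC correction. The antisense gene RAB11B-AS1, which overlaps ANGPTL4, had counts of 12, 11, 34.0 and 12.0, and since the use of strand in the counting is not given, reads of the 2 genes cannot be told apart.

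THBS1, thrombospondin 1, is a matrix protein that inhibits endothelial growth and the one inhibitor among the members. Its gene lies on chromosome 15 from 39581079 to 39599466 (plus strand). It was 13.1 and 17.8 TPM in control cells and 9.84 and 15.7 TPM in CBX7 cells. The groups overlapped, and the replicates of each group lay further apart than the group means of 15.5 and 12.8 TPM. The log2 fold change was -0.17 (SE 0.19), and with the length and GC correction -0.03. The long THBS1 transcript (7789 bases in the deposited table) overlaps FSIP1, which had 59.3 to 66.4 counts. The ratio of VEGFA to THBS1 in TPM was 4.31 and 3.50 in the control libraries against 3.50 and 3.58 in the CBX7 libraries, and that of EGFL7 to THBS1 was 1.54 and 1.01 in the control libraries against 6.50 and 3.10 in the CBX7 libraries.

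FLT1, a receptor of VEGFA, VEGFB and PGF, had counts of 0 and 1 in the control libraries against 1 and 0 in the CBX7 libraries, under the floor of 3 counts, so no fold is given. FLT1 lies on chromosome 13 from 28300344 to 28495145 (minus strand). The other VEGF receptors were as low. KDR, the main signalling receptor of VEGFA, had counts of 0, 2, 1 and 1, and FLT4 of 1, 0, 0 and 0. At this depth none of the 3 could be detected.

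NRARP, which dampens Notch signalling by destabilising the Notch intracellular domain, was 0.64 and 0.50 TPM in control cells and 1.85 and 2.21 TPM in CBX7 cells. NRARP lies on chromosome 9 from 137300482 to 137302251 (minus strand). Both CBX7 libraries were above both control libraries, at low counts of 29, 19, 100 and 88. The log2 fold change of 1.92 (SE 0.28), or 3.78-fold, was the highest of the members, and it was 1.76 after the length and GC correction. Its pairs gave 1.70 and 2.02, so the second pair showed the larger difference here and the first pair did for EGFL7.

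**Figure D3:**
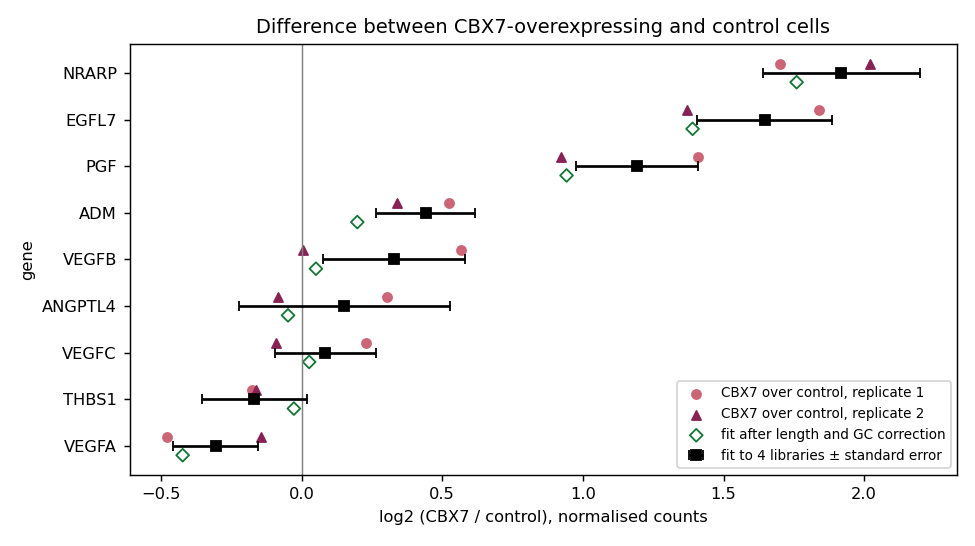
Difference between CBX7 and control cells for the 9 genes fitted, as log2 of the ratio of normalised counts. Squares with bars are the fit to 4 libraries with its standard error, filled circles and triangles the ratios of the libraries numbered 1 and 2, and open diamonds the fit after correction for length and GC. NRARP (1.92), EGFL7 (1.65) and PGF (1.19) lie to the right of 1 and VEGFA (-0.31) to the left of 0.

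In control cells the order of levels in TPM was VEGFA, VEGFB, VEGFC, EGFL7, ADM, THBS1, PGF, ANGPTL4, NRARP and FLT1. Of these neighbours only ADM and THBS1 had ranges that overlapped. In CBX7 cells the order was EGFL7, VEGFB, VEGFA, VEGFC, ADM, THBS1, PGF, NRARP, ANGPTL4 and FLT1. There the ranges of EGFL7 and VEGFB and of VEGFB and VEGFA overlapped, so EGFL7 cannot be placed above VEGFB or VEGFB above VEGFA beyond the spread. By its mean EGFL7 led the CBX7 order and came after the VEGF ligands VEGFA, VEGFB and VEGFC in control cells. Ranked by log2 fold change among the 12187 genes that averaged 50 counts or more, NRARP held rank 13, EGFL7 rank 22, PGF rank 74 and ADM rank 523, while VEGFA held rank 11485 from the top.

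Other genes of the same roles were taken from lists of pathway members. Over all 14862 genes tested, 705 had an unadjusted p under 0.05 and 67 were called by DESeq2. By CPM, 15.4% were higher in both CBX7 libraries and 14.8% lower in both. The counts of each list below are to be read beside these. A list of 35 pro-angiogenic ligands had 30 genes tested, of which 0 passed edgeR's test in either direction. Of its 23 tested genes that are not members, 6 had an unadjusted p under 0.05 and 1 (MDK) passed the test of DESeq2. By CPM, of the 30, members included, 11 were higher in both CBX7 libraries, 10 lower in both, and 9 overlapped, with a median log2 fold change of 0.11. After the length and GC correction the median was -0.02, against -0.00874 over all genes tested. EGFL7 and PGF had the largest absolute differences among its well-counted genes. MDK, the heparin-binding growth factor midkine, was far more abundant, at 193 and 173 TPM in control cells and 405 and 325 TPM in CBX7 cells. Its log2 fold change was 1.14 (SE 0.24), and 0.91 after the correction. TYMP, thymidine phosphorylase, also known as platelet-derived endothelial cell growth factor, was 21.3 and 19.5 TPM in control cells and 36.3 and 28.6 TPM in CBX7 cells, a log2 fold change of 0.96 (SE 0.23), and of 0.78 after the correction.

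Of 27 anti-angiogenic factors 15 were tested and 0 passed by edgeR. Of the 14 that are not members, 6 had an unadjusted p under 0.05 and 2 (ADGRB1 and TIMP3) were called by DESeq2. Of the 15, THBS1 included, both CBX7 libraries were higher for 5 and lower for 3, and 7 overlapped, with a median log2 fold change of 0.05. ADGRB1, an adhesion receptor whose cleaved part inhibits vessel growth, was 0.31 and 0.41 TPM in control cells and 1.91 and 1.22 TPM in CBX7 cells. Its log2 fold change of 1.67 (SE 0.25) was about that of EGFL7, at a far lower level. TIMP3, a metalloproteinase inhibitor that also blocks VEGF binding to KDR, was 1.56 and 1.60 TPM in control cells and 2.88 and 4.15 TPM in CBX7 cells, a log2 fold change of 1.24 (SE 0.17). SEMA3F, a semaphorin that acts through neuropilin 2, had a log2 fold change of 0.82 (SE 0.19), and SERPINB5 of 0.63 (SE 0.19). Among genes on both sides of vessel growth, some were thus higher in both CBX7 libraries. In the thrombospondin family 4 of 5 were tested and 0 passed by edgeR, and of the 3 besides THBS1 0 had an unadjusted p under 0.05 and DESeq2 called 0. THBS2 had a log2 fold change of -0.32 (SE 0.16) and THBS3 of 0.18 (SE 0.20), and 1 of the 4 was higher, 1 lower and 2 overlapped, with a median of 0.0043. In the ANGPTL family 2 of 8 were tested, both overlapped and 0 passed by edgeR, with a median of 0.14, and the 1 besides ANGPTL4 had no unadjusted p under 0.05 and no call by DESeq2.

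Of 29 receptors of these ligands 16 were tested and 0 passed by edgeR (2 at an unadjusted p under 0.05) or by DESeq2, with 5 higher, 3 lower and 8 overlapping and a median log2 fold change of -0.10. EDNRA, the endothelin receptor A, was 2.54 and 3.55 TPM in control cells and 0.74 and 1.55 TPM in CBX7 cells, a log2 fold change of -1.07 (SE 0.29). NRP1, the co-receptor neuropilin 1 for VEGFA and semaphorins, was 36.4 and 42.4 TPM in control cells and 18.7 and 31.6 TPM in CBX7 cells, a log2 fold change of -0.39 (SE 0.18). ITGB3, the integrin subunit beta 3 that pairs with integrin alpha V, was 5.61 and 6.23 TPM in control cells and 1.54 and 4.99 TPM in CBX7 cells, so its log2 fold change of -0.78 (SE 0.42) came mostly from the first CBX7 library. RAMP1, which forms the CGRP receptor with CALCRL, was 20.6 and 19.1 TPM in control cells and 36.0 and 26.0 TPM in CBX7 cells, a log2 fold change of 0.83 (SE 0.29), and of 0.47 after the correction for length and GC.

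Of 23 genes of the EGFL7 and Notch context 14 were tested and 1 passed by edgeR. Of the 12 that are not members, 3 had an unadjusted p under 0.05 and 1 (JAG2) was called by DESeq2. JAG2, a ligand of Notch receptors, rose from 0.64 and 0.48 TPM in control cells to 7.09 and 7.64 TPM in CBX7 cells. Its log2 fold change was 3.33 (SE 0.19), with an adjusted p of 0.0317 by edgeR's quasi-likelihood test, and of the alternatives only the length correction by itself ended this call. Of the 14, 5 were higher in both CBX7 libraries, 1 was lower and 8 overlapped, with a median log2 fold change of 0.14. The median was -0.03 after the length and GC correction. HES4, a transcription factor of the HES family of Notch targets, was 13.9 and 14.8 TPM in control cells and 31.4 and 19.1 TPM in CBX7 cells, a log2 fold change of 1.00 (SE 0.35). After the length and GC correction it was 0.59. The targets HES1 and HEY1 had log2 fold changes of -0.17 and -0.10, the receptor NOTCH2 had -0.47, and EGFL8, the paralog of EGFL7, had 0.13, or -0.05 after the correction. LFNG, a glycosyltransferase that modifies Notch receptors, had low counts of 18, 16, 71 and 29, with both CBX7 libraries higher, and a log2 fold change of 1.48 (SE 0.48), or 1.32 after the correction. These 5 genes were named after their values were seen.

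VEGFA, ADM and ANGPTL4 are also known hypoxia-induced genes. All 22 genes of a hypoxia list were tested and 0 passed by edgeR or by DESeq2 (1 of the 19 that are not members had an unadjusted p under 0.05), with 2 higher, 7 lower and 13 overlapping and a median log2 fold change of -0.10. NDRG1, a stress and hypoxia marker, was 65.7 and 70.4 TPM in control cells and 34.8 and 50.4 TPM in CBX7 cells, a log2 fold change of -0.58 (SE 0.14). SLC2A3, the glucose transporter GLUT3, had a log2 fold change of -0.28 (SE 0.14). ADM and VEGFA, both on this list, thus lay on opposite sides of 0.

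**Figure D4:**
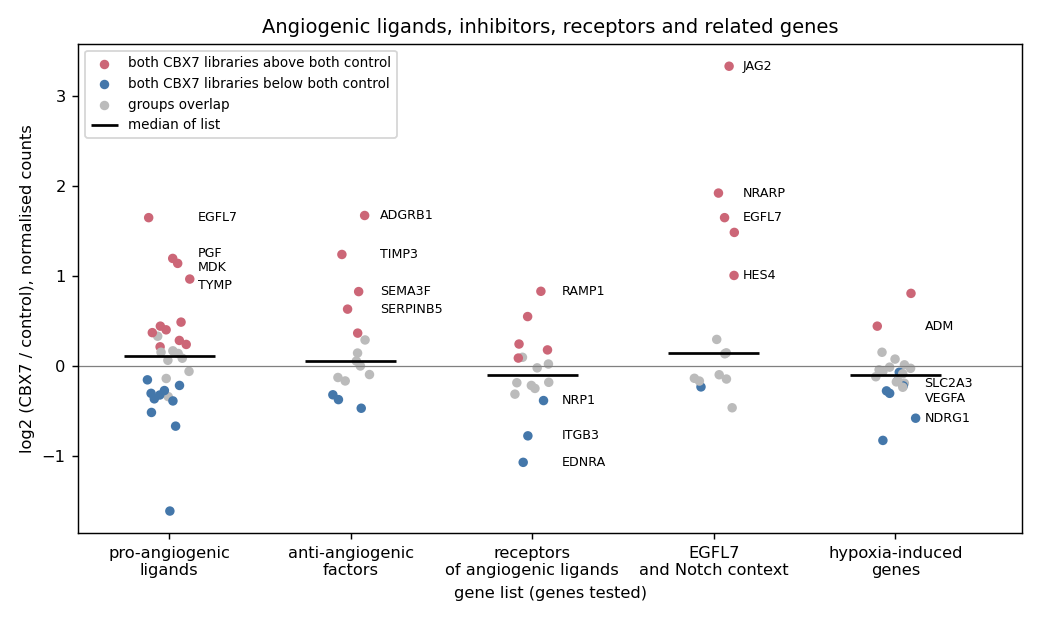
Log2 ratio of CBX7 to control, on normalised counts, for the tested genes of 5 lists. Red points are genes with both CBX7 libraries above both control libraries, blue points genes with both below, and grey points genes whose groups overlap. Black lines are list medians, which run from -0.10 to 0.14 without the correction for length and GC.

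EGFL7 and SOX18 are genes of endothelial cells, so markers of other cell types were set beside them. Of 15 endothelial markers 6 were tested and 0 passed by edgeR (1 at an unadjusted p under 0.05) or by DESeq2, with a median log2 fold change of 0.05. Of the 6, 2 were higher, 1 lower and 3 overlapped. The summed level of the list was 7.52 and 9.57 TPM in control cells and 9.80 and 11.7 TPM in CBX7 cells, 12 of the 15 were under 1 TPM in every library, and 3 were at 0 in all. The defining marker PECAM1 had counts of 1, 3, 1 and 4, and VWF of 1, 1, 1 and 0, at or near the floor. CDH5, vascular endothelial cadherin, had counts of 13, 12, 3 and 7, lower in both CBX7 libraries. At a like level, ESAM had 9, 5, 15 and 13, higher in both, and TIE1 had 13, 25, 15 and 17, with overlapping groups. SOX18, a transcription factor of endothelial cells, was 1.02 and 1.33 TPM in control cells and 3.68 and 3.06 TPM in CBX7 cells, a log2 fold change of 1.66 (SE 0.32), and of 1.40 after the length and GC correction. ROBO4, an endothelial guidance receptor, had a log2 fold change of 0.14. MMRN2, an endothelial matrix protein, had -0.05.

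Of 12 urothelial and epithelial markers 8 were tested and 0 passed by edgeR (2 at an unadjusted p under 0.05), while DESeq2 called 1 (KRT19), with 4 higher, 0 lower, 4 overlapping and a median log2 fold change of 0.29. Their summed level was 3281 and 3182 TPM in control cells and 3761 and 3385 TPM in CBX7 cells. The sum rested on the keratins KRT7, KRT8 and KRT18, with log2 fold changes of 0.28, 0.22 and 0.30, which were 0.07, 0.09 and 0.14 after the length and GC correction. KRT19 had 1.35 (SE 0.23), and 1.13 after it. GATA3 had low counts of 3, 4, 14 and 22, with both CBX7 libraries higher. Its log2 fold change was 2.28 (SE 0.56), and 2.26 after the correction. FOXA1, also higher in both CBX7 libraries, had 0.22, while EPCAM (0.59) and PPARG (0.05) had overlapping groups. The urothelial markers UPK1B, UPK2 and UPK3A and the epithelial cadherin CDH1 had at most 3 counts in any library. Of 9 leukocyte and stromal markers 5 were tested and 0 passed by edgeR (2 at an unadjusted p under 0.05) or by DESeq2, with 3 higher, 1 lower, 1 overlapping and a median of 0.31. Their summed level was 19.8 and 19.1 TPM in control cells and 15.1 and 20.3 TPM in CBX7 cells. COL1A1 had a log2 fold change of 0.71, ACTA2 of 0.31 and CD68 of -0.60. The part of these markers in the level of EGFL7 was not tested.

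The nearest tested genes on chromosome 9 were set beside EGFL7. AGPAT2, an acyltransferase of lipid synthesis that ends 0.465 kb beyond EGFL7 on the opposite strand, was 73.0 and 70.4 TPM in control cells and 114 and 92.7 TPM in CBX7 cells, a log2 fold change of 0.67 (SE 0.23), and of 0.40 after the length and GC correction. The other side was quieter. NOTCH1, the Notch receptor gene 113 kb away, had a log2 fold change of 0.29 (SE 0.20) and overlapping groups. The 4 tested genes beyond it, C9orf163, SEC16A, INPP5E and PMPCA, had 0.08, -0.12, -0.09 and 0.25. On the AGPAT2 side DIPK1B had -0.19, SNHG7 0.29 and TMEM141 0.21. The correction turned the sign of C9orf163 (-0.04) and TMEM141 (-0.07). LCN10, a lipocalin gene, had counts of 14, 2.15, 82 and 69.1 and a log2 fold change of 3.19 (SE 0.60), with both CBX7 libraries higher at a low level. NRARP lies 627.8 kb from EGFL7 on the same chromosome.

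**Figure D5:**
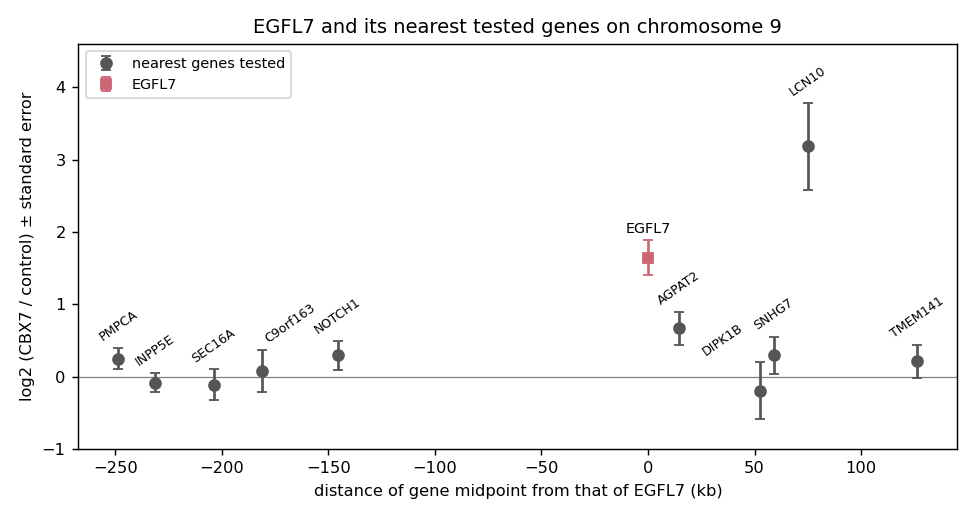
Log2 ratio of CBX7 to control with its standard error for EGFL7 (square, 1.65) and the 5 nearest tested genes on each side (circles), by distance between gene midpoints in kb. LCN10 (3.19) and EGFL7 stand above 1, AGPAT2 is at 0.67, and the other 8 lie between -0.19 and 0.29.

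Genes whose pattern over the 4 libraries was most like that of EGFL7 were picked by the root mean square difference of log2 CPM centred on each gene's mean, among 12186 other genes. HFM1, a meiotic DNA helicase gene, was nearest at 0.0365, and TMC6, a transmembrane channel-like gene, followed at 0.0834. CRIP1, a LIM-domain protein gene, was at 0.0963 and CERS1, a ceramide synthase gene, at 0.0965. The log2 fold changes of these 4 were 1.72, 1.55, 1.67 and 1.52. The likeness rests on the same 4 libraries in 2 groups and is a description. In control replicate 1, HFM1 had 29.25 TPM from 59.48 counts, while TMC6 had 4.69 TPM from 149 counts. HFM1 is deposited at 4899 bases and TMC6 at 2786 bases. The length behind the TPM of HFM1 was thus shorter than that of TMC6, despite its longer deposited length. Whether the reads given to HFM1 came from the helicase transcript was not tested.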

How the data were processed

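RNA-seq of 4 libraries of T24 cells (2 control, 2 CBX7) was analysed from 1 table. Per gene and library the authors deposited an estimated count, whole for 88.2% to 88.9% of values, and a TPM value, beside the gene length. Their own fold, log2 fold change, p-value, adjusted p-value and significance columns were not used. The submitters' processing notes name cutadapt 1.9.1, HISAT2 2.0.1, HTSeq 0.6.1, DESeq2 and hg19, with no role or order; whether they gave these fractional counts is not given in the sources used here. Coordinates and GC content are from GENCODE release 29 on GRCh38, in which 58516 of 60623 gene identifiers (96.5%) were found.

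Deposited counts were rounded, filtered by filterByExpr (minimum count 10), given TMM factors and fitted by edgeR 4.0.16 (glmQLFit, then glmQLFTest; R 4.3.3, limma 3.58.1) on a single condition term. P-values were adjusted over all genes tested (Benjamini-Hochberg, threshold 0.05). The standard error was taken as the absolute log2 fold change over the root of F. The method was tested on simulated data. Tables and plots were made in Python 3.11.15 (pandas 2.3.3, numpy 2.4.6, matplotlib 3.10.9). The libraries of a group differed beyond sampling noise (chi-square per degree of freedom 6.5 in control and 60.4 in CBX7), so each counted once. An exact permutation test of 2 against 2 libraries cannot go below p = 0.333, so none was run.

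The members and the gene lists were chosen with earlier results of these data known. Genes named are the members, CBX7, up to 4 genes of each list with the largest absolute log2 fold change and a mean of at least 50 counts, defining markers, the 5 nearest tested genes on each side of EGFL7, and the 5 genes most like it in pattern, of which 1 is not reported here. Other list genes named by their counts or values were added after their values were seen. Among these were the VEGF receptors, RAMP2 and RAMP3, further Notch genes, CXCL ligands, ESAM, TIE1, GATA3, FOXA1, EPCAM and PPARG. Alternatives were DESeq2 1.42.0 (size factors and Wald test), upper-quartile scaling, other filters, the newer quasi-likelihood method, a length correction, a replicate block and leaving out each library. The correction for length and GC, alone and with the block, was added after seeing the data.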

Additional observations from a re-analysis of the deposited data

How the results depend on the processing

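With 2 libraries a group, how many genes passed varied with the fit. EGFL7 had log2 fold changes of 1.39 to 1.65 over the fits to 4 libraries and of 1.30 (without CBX7 replicate 1) to 1.93 (without CBX7 replicate 2) with 1 library left out. The groups of EGFL7, NRARP, PGF, ADM and VEGFA did not overlap, so leaving out a library could not turn their direction, which is no sign of stability. ANGPTL4 changed sign in 3 alternatives and THBS1, VEGFB and VEGFC in 1 each: without CBX7 replicate 1, VEGFB was -0.07 and VEGFC -0.14, without control replicate 2, THBS1 was 0.00319, and ANGPTL4 was -0.23 without CBX7 replicate 1, -0.05 with the length and GC correction and -0.05 with the block beside it. The 3 genes past the threshold among all tested became 67 by the Wald test of DESeq2, 265 when no filter was set and 5 after the length and GC correction, and ranged from 45 (without control replicate 2) over 59 (without control replicate 1) and 397 (without CBX7 replicate 1) to 5491 (without CBX7 replicate 2) with 1 library left out, where the lone library was assumed to vary like the other group. The count over the genes of the lists, 1 of 113, became 7 of 113, 15 of 154 and 2 of 113 in the same fits and 0 with the length correction alone, and ranged from 2 to 63 (without CBX7 replicate 2), with 4 without control replicate 1 and 19 without CBX7 replicate 1. These list counts hold members chosen on this contrast, so they are no support for them. The cause was not tested. The libraries share replicate numbers. Deviations of same-numbered libraries correlated at 0.305 over all genes tested and 0.613 over 11077 well-counted genes, but with 2 pairs and no label tying them, the number does not pair them. A fit with the replicate block called 361 genes, 337 with the block and the length correction and 142 with the block and the length and GC correction, and the counts over the lists were 21, 22 and 11. Depth limits FLT1, KDR, FLT4 and most endothelial markers, which were at or near the floor of 3 counts.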

Other observations

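The VEGF ligands were not the most abundant angiogenic ligand transcripts of these cells. By mean TPM among the 35 ligands, LGALS1, which encodes galectin 1, stood first in both groups, at 5000 and 4857 TPM in control cells and 5113 and 4539 TPM in CBX7 cells. The chemokine CXCL1 followed, at 1963 and 1932 TPM in control cells and 1720 and 1701 TPM in CBX7 cells, and then CXCL8, at 684 and 700.0 TPM in control cells and 483 and 627 TPM in CBX7 cells. VEGFA was sixth in control cells and ninth in CBX7 cells. CXCL6, another chemokine of this family, was 37.5 and 38.5 TPM in control cells and 17.0 and 29.4 TPM in CBX7 cells, a log2 fold change of -0.67 (SE 0.14). CXCL8 and CXCL6 were thus lower in both CBX7 libraries in TPM, and in CPM too. CXCL1 was lower in TPM only: in CPM its groups overlapped, at 1414 and 1338 in the control libraries against 1479 and 1159 in the CBX7 libraries, a log2 fold change of -0.06. None of the 3 passed edgeR's test without a replicate block on all 4 libraries. CXCL6 passed with the block (adjusted p = 0.00367 by edgeR) and with either CBX7 library left out, and CXCL8 passed without CBX7 replicate 2 (adjusted p = 0.034 by edgeR). These ligands were named after their values were seen.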
